A study of Mus musculus with 6 samples.

Results

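The subunit genes of the NMDA receptor were examined in hippocampal RNA of stressed mice that received baicalin or saline. The members are the 6 genes of the expression table named Grin1, Grin2a, Grin2b, Grin2c, Grin2d and Grin3a, of 32201 genes in all. They are picked by gene name, but the members and the gene lists below were chosen with earlier results of these data known. The baicalin group holds 3 libraries from mice dosed at 20 mg/kg with baicalin, a plant flavonoid of Scutellaria baicalensis, and the saline group holds 3 libraries from mice given saline. All 6 libraries come from male C57BL/6N mice aged 8 weeks, and all of these mice, the saline group included, had gone through chronic unpredictable mild stress, a changing schedule of mild stressors used in rodents as a model of depression. Unstressed mice are not analysed here, so no value below is a change with stress. Nothing in the labels says that each library is a separate animal, so a p-value below describes library-to-library spread, which may be technical.

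NMDA receptors are glutamate-gated cation channels that open when glutamate and a co-agonist, glycine or D-serine, are bound while depolarisation lifts a magnesium block. The calcium that then enters starts many forms of hippocampal synaptic plasticity, and the receptors are the target of ketamine and memantine. Each receptor needs GluN1, the glycine-binding subunit encoded by Grin1, joined by glutamate-binding GluN2 subunits (Grin2a to Grin2d) or by GluN3 subunits (Grin3a and Grin3b). The GluN2 subunit sets deactivation speed, magnesium block and the scaffold and kinase partners of the receptor.

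The coding sequences of the 6 genes share few short runs of bases, which matters for telling their reads apart. Over whole aligned coding sequences from GENCODE mouse release 21, Grin2a and Grin2b were 65.0% identical and Grin2c and Grin2d 64.2%, while Grin3a was 44.4 to 46.1% identical to the others. No more than 6 of the 31-base words of any member's transcripts occurred in another member. The exception lies outside the family: 2133 of 17953 such words of Grin2a also occur in Gm7328, a processed pseudogene. The count of Gm7328 was 1.34, 1.70 and 1.30% of that of Grin2a in baicalin libraries 1 to 3 and 1.59, 1.57 and 1.81% in saline libraries 1 to 3. Whether reads of Grin2a were counted at Gm7328 or the reverse was not tested.

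Library totals were 61303274 to 64983755 counts with baicalin and 65989141 to 67957752 counts with saline. Hippocampal markers were present in every library, including Prox1 of the dentate gyrus at 7.81 to 12.2 FPKM. Saline library 2 had a summed dentate marker level of 37.5 FPKM, against 57.6 to 61.4 FPKM in the other 5 libraries. Markers of choroid plexus ranged from 19.5 to 64.8 FPKM with baicalin and from 11.1 to 37.7 FPKM with saline, and saline library 3 was highest in meningeal markers, at 16.9 FPKM. FPKM, the deposited unit, counts fragments per length assigned to the gene and per mapped fragments of the library. Of 13153 genes that averaged 1 FPKM or more, 6 (0.0456%) passed an adjusted threshold of 0.05 in the quasi-likelihood test of edgeR with Benjamini-Hochberg adjustment.

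All 6 subunit genes passed the 1 FPKM filter, and their order by FPKM was the same in each of the 6 libraries. Grin1 was highest, at a mean level of 33.8 ± 5.89 FPKM with baicalin and 33.6 ± 0.745 FPKM with saline (all ± here are SDs of 3 libraries). Grin2a came next at 16.7 ± 1.12 FPKM with baicalin and 19.1 ± 0.839 FPKM with saline, and Grin2b at 13.0 ± 0.877 FPKM with baicalin and 14.8 ± 0.352 FPKM with saline. These are the genes of the obligate subunit and of the GluN2 subunits that predominate in adult forebrain. Grin2c averaged 6.59 ± 0.265 FPKM with baicalin and 6.99 ± 0.242 FPKM with saline. Grin3a averaged 2.38 ± 0.30 FPKM with baicalin and 2.51 ± 0.186 FPKM with saline, and Grin2d was lowest at 1.38 ± 0.183 FPKM with baicalin and 1.37 ± 0.180 FPKM with saline. No neighbours in this order overlapped over the 6 libraries. The closest pair was Grin2a and Grin2b, whose lowest and highest library were 15.6 and 15.1 FPKM. In FPKM Grin2a exceeded Grin2b by 1.27 to 1.32 times within a library. Levels compared between genes depend on the length assigned to each. In raw counts Grin2b exceeded Grin2a in every library, as at 25065 against 23491 counts in baicalin library 1. Grin2b has 24842 annotated exonic bases and Grin2a 17933. Grin3b, which encodes the remaining GluN3 subunit, had 0 to 10 counts per library and a mean of 0.021 FPKM, below the filter, and was not tested.

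**Figure D1:**
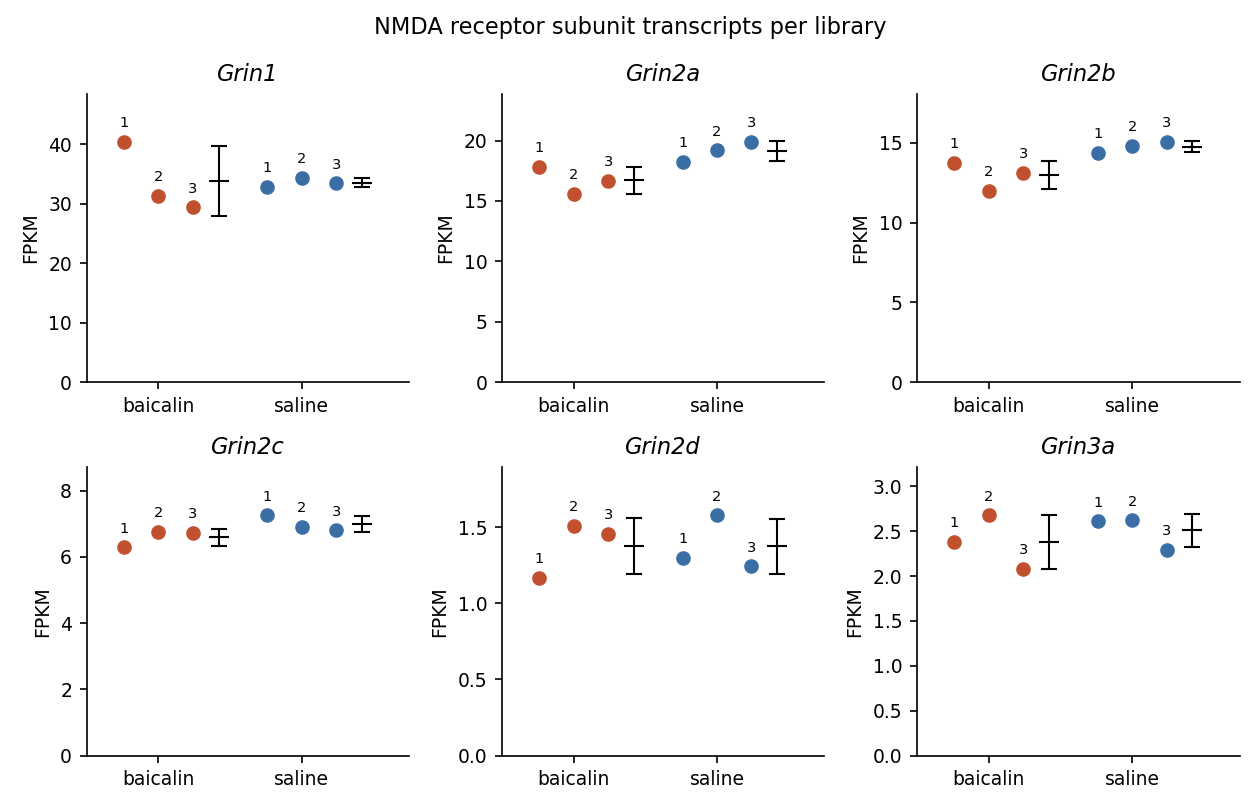
Level of each subunit transcript in FPKM (y axes, from 0) in every library, with libraries numbered 1 to 3 in each group; bars are mean ± SD of 3 libraries. The 3 baicalin libraries lie below the 3 saline libraries for Grin2a and Grin2b, and baicalin library 1 stands above the rest for Grin1.

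None of the 6 subunit genes passed the adjusted threshold of edgeR, in which 0.0152% of all genes tested were higher and 0.0304% lower with baicalin. None passed in DESeq2 either, which called 1.66% of all genes. The lower baicalin values were those of Grin2a and Grin2b, and they were of similar size. For both genes every baicalin library lay below every saline library in CPM (counts scaled to library size by TMM), which held for 9.52% of all genes tested, while no member lay apart in the higher direction, as 9.93% of all genes did. Both also had an unadjusted p under 0.05 in the lower direction, as did 5.46% of all genes tested (11.8% in both directions). In the longest length group described below, which holds both genes, 13.2% did so in the lower direction. Of the 6 log2 differences, 4 were below 0 with a median of -0.07, against 50.2% below 0 and a median of -0.0006 over all genes tested. With TPM scaling (FPKM rescaled to an equal total in each library) all 6 were below 0, but that scaling moves the median of all genes to -0.08. With the length offsets described below 3 of the 6 were below 0 and the median was -0.02. The median of the 6 was -0.05 without saline library 1 and -0.12 without saline library 3. In bulk tissue, fewer cells of a type and less RNA per cell cannot be told apart.

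Grin1 (ENSMUSG00000026959) lies on chromosome 2 at 25291181 to 25319187, minus strand, with 14 annotated transcripts and 9700 exonic bases. Its level was 40.5, 31.4 and 29.5 FPKM in baicalin libraries 1 to 3 and 32.9, 34.4 and 33.5 FPKM in saline libraries 1 to 3. The saline libraries were tightly grouped, and the baicalin libraries fell on both sides of them, with library 1 above and libraries 2 and 3 below all of them. The SD of the log2 level was 0.24 with baicalin and 0.037 with saline, on 20009 to 28848 counts. The log2 difference, baicalin minus saline, was 0.01 ± 0.11 (SE; 95% interval -0.26 to 0.29), with an adjusted p of 0.965 in edgeR. Without baicalin library 1 it was -0.14, with an adjusted p of 0.356. An antisense gene on the plus strand, Grin1os, shares 1307 bases (13.5%) of the Grin1 exons, and the sources used here do not say whether reads were counted by strand. Grin1os was at 4.88, 4.96 and 4.19 FPKM in the baicalin libraries and 4.87, 5.18 and 4.98 FPKM in the saline libraries. Baicalin library 1, the highest for Grin1, was not the highest for Grin1os. Whether reads of Grin1os were counted at Grin1 was not tested.

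Grin2a (ENSMUSG00000059003), which encodes the fast-deactivating GluN2A subunit of mature synapses, lies on chromosome 16 at 9567898 to 9995560, minus strand. It was at 17.8, 15.6 and 16.7 FPKM in baicalin libraries 1 to 3 and 18.2, 19.2 and 19.9 FPKM in saline libraries 1 to 3. The groups did not overlap, though baicalin library 1 came close to saline library 1. The log2 difference was -0.19 ± 0.06 (SE; 95% interval -0.34 to -0.03), a ratio of 0.878, with an unadjusted p of 0.0232 and an adjusted p of 0.381 in edgeR. The gene ranked 791 of 13153 by p. Its counts were 20713 to 27673 per library, so the spread between libraries, and not counting error, sets the interval.

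Grin2b (ENSMUSG00000030209) encodes GluN2B, the slower-deactivating subunit that prevails early in development and binds CaMKII. It lies on chromosome 6 at 135713233 to 136173511, minus strand, with 24842 exonic bases, the most of the 6 members. It was at 13.7, 12.01 and 13.1 FPKM in baicalin libraries 1 to 3 and 14.4, 14.8 and 15.1 FPKM in saline libraries 1 to 3. The groups did not overlap, and baicalin library 2 was lowest, as for Grin2a. The log2 difference was -0.18 ± 0.06 (SE; 95% interval -0.32 to -0.04), a ratio of 0.883, with an unadjusted p of 0.0216 and an adjusted p of 0.377 in edgeR.

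**Figure D2:**
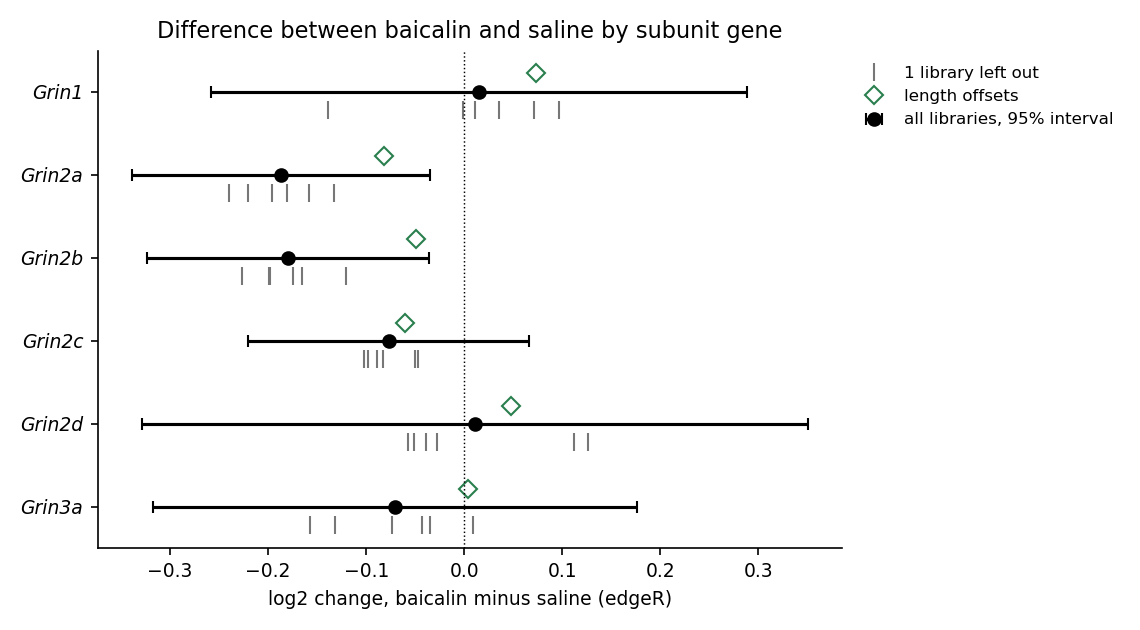
Log2 difference, baicalin minus saline, of each subunit gene in edgeR: black points with 95% intervals from all 6 libraries, diamonds with length offsets, and ticks with 1 library left out in turn. The intervals of Grin2a (-0.34 to -0.03) and Grin2b (-0.32 to -0.04) lie below 0, and those of the other 4 genes span it.

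The differences of Grin2a and Grin2b stood beside a trend with transcript length that ran through the whole table. With genes split into 5 equal groups by exonic length, the median log2 difference was 0.11 in the shortest group and -0.07 in the longest. The longest group, 7288 to 41155 bases, holds Grin1, Grin2a, Grin2b and Grin3a, and in it 72.2% of genes had a difference below 0 and 19.7% had all baicalin libraries below all saline libraries. When edgeR was fitted with offsets that remove a smooth trend on exonic length from each library, Grin2a had a log2 difference of -0.08 (adjusted p 0.701) and Grin2b of -0.05 (adjusted p 0.837). The other members were at 0.07 for Grin1, -0.06 for Grin2c, 0.05 for Grin2d and 0.003 for Grin3a in that fit. What the trend with length comes from was not tested.

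**Figure D3:**
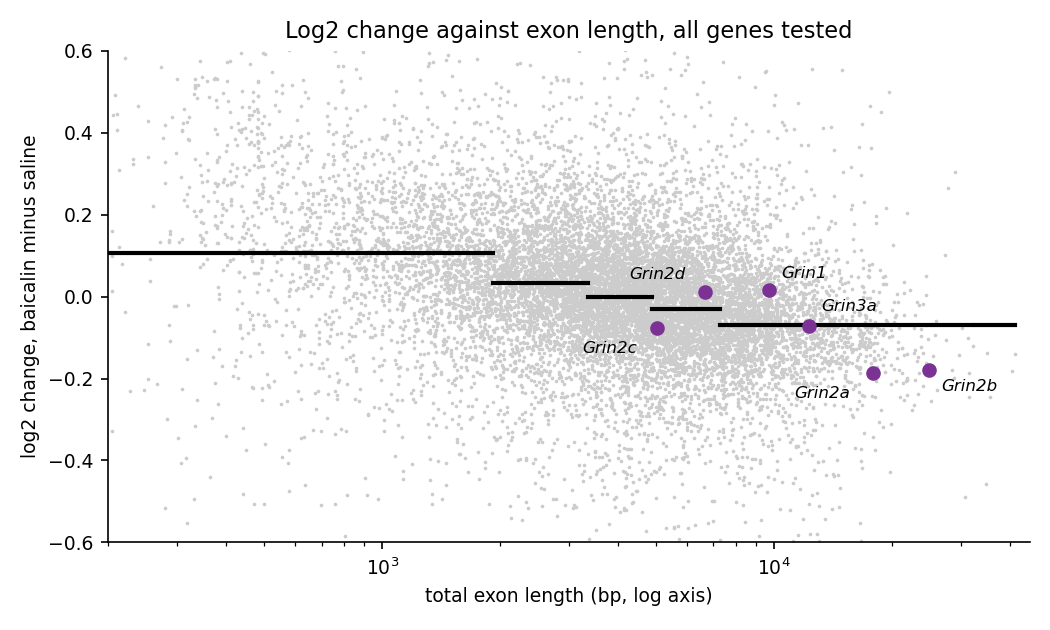
Log2 difference, baicalin minus saline, against exonic length in bases (log axis) for the genes tested, with the 6 subunit genes marked; some genes lie outside the axes. Black lines are the medians of the 5 length groups, which go down from 0.11 to -0.07 with length, and Grin2a and Grin2b lie in the longest group.

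Grin2c and Grin2d encode GluN2 subunits with weaker magnesium block, known from cerebellar granule cells for GluN2C and from interneurons for GluN2D. Grin2c (ENSMUSG00000020734; chromosome 11, 115249169 to 115267243, minus strand) was at 6.28, 6.76 and 6.73 FPKM in baicalin libraries 1 to 3 and 7.26, 6.91 and 6.80 FPKM in saline libraries 1 to 3. The groups were narrowly apart in FPKM and overlapped in CPM, with baicalin library 3 at 39.6 and saline library 3 at 39.3. Baicalin minus saline was -0.08 ± 0.06 on the log2 scale (SE; 95% interval -0.22 to 0.07), with an adjusted p of 0.629 in edgeR. The 6 cerebellar markers summed to 31.7 to 32.6 FPKM with baicalin and 28.5 to 31.2 FPKM with saline, and Calb1, which hippocampal neurons also express, averaged 29.9 FPKM of that. The other 5 were below the filter, from 0.010 FPKM for Gabra6 and Fat2 to 0.696 FPKM for Cbln1, and none was at 0 in every library. Their part in the level of Grin2c was not tested.

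Grin2d (ENSMUSG00000002771) is on chromosome 7, at 45831883 to 45870429 on the minus strand in the deposited table, and the annotation release used here bounds it differently. It was at 1.17, 1.51 and 1.45 FPKM in baicalin libraries 1 to 3 and 1.30, 1.58 and 1.24 FPKM in saline libraries 1 to 3. The groups overlapped fully, on 574 to 797 counts per library. On the log2 scale the difference was 0.01 ± 0.14 (SE; 95% interval -0.33 to 0.35), with an adjusted p of 0.978 in edgeR. That interval leaves room for a difference in either direction. The antisense gene Gm45441 shares 643 bases (9.66%) of the Grin2d exons. It had 219, 304 and 19 counts in baicalin libraries 1 to 3 and 249, 262 and 261 counts in saline libraries 1 to 3, and the low value in baicalin library 3 was not matched in Grin2d. Interneuron markers summed to 347.8 to 389.0 FPKM with baicalin and 326.2 to 374.9 FPKM with saline.

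Grin3a (ENSMUSG00000039579) encodes GluN3A, a glycine-binding subunit that lowers calcium permeability and is best known from early postnatal brain. It lies on chromosome 4 at 49661611 to 49845744, minus strand. It was at 2.38, 2.68 and 2.08 FPKM in baicalin libraries 1 to 3 and 2.61, 2.62 and 2.29 FPKM in saline libraries 1 to 3. The highest and the lowest of the 6 libraries were both baicalin libraries, so the groups overlapped. Their log2 difference was -0.07 ± 0.10 (SE; 95% interval -0.32 to 0.18), with an adjusted p of 0.806 in edgeR.

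Ratios within a library do not depend on how libraries are scaled. They describe the balance between subunit transcripts in FPKM, so their size depends on the length assigned to each gene. The Grin2a to Grin2b ratio of FPKM was 1.30, 1.30 and 1.27 in baicalin libraries 1 to 3 and 1.27, 1.30 and 1.32 in saline libraries 1 to 3. The mean log2 ratio differed by -0.0066 (two-sided exact permutation p of 1), and with 3 libraries against 3 that test cannot go below 0.1. The summed FPKM of the 4 GluN2 genes was 39.0, 35.9 and 38.0 with baicalin and 41.2, 42.5 and 43.0 with saline, without overlap. Of all single genes tested 9.52% lay apart in the lower direction in CPM, and 19.7% of those in the longest length group. Grin2a and Grin2b, which lay apart themselves, made up 76.9 to 81.3% of the GluN2 sum. Within that sum, Grin2a made up 44.4 ± 1.18% with baicalin and 45.2 ± 0.993% with saline, and Grin2b 34.4 ± 0.867% with baicalin and 34.9 ± 0.0951% with saline. Grin2c made up 17.6 ± 1.38% with baicalin and 16.6 ± 0.953% with saline, and Grin2d 3.68 ± 0.620% with baicalin and 3.25 ± 0.424% with saline. The ranges of the groups overlapped for each of these shares, and no test of them was made.

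The ratio of Grin1 to the summed GluN2 genes was 1.04, 0.875 and 0.775 in baicalin libraries 1 to 3 and 0.799, 0.809 and 0.778 in saline libraries 1 to 3. Baicalin library 1 was highest and baicalin library 3 lowest, so the baicalin range enclosed the saline range. The mean log2 ratio differed by 0.16 (two-sided exact permutation p of 0.4), and by 0.05 without baicalin library 1.

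**Figure D4:**
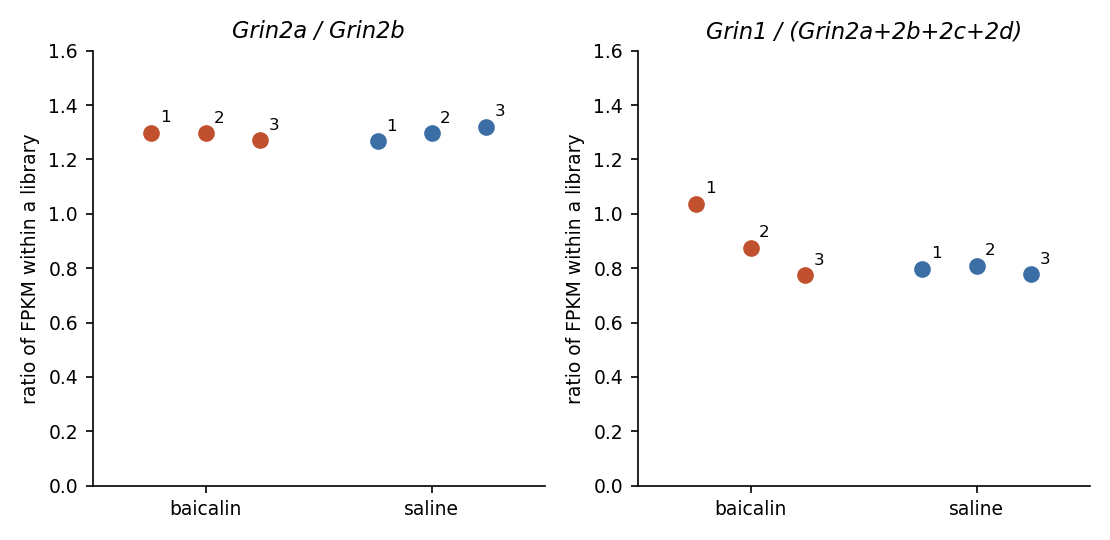
Within-library ratios of FPKM for Grin2a to Grin2b and for Grin1 to the sum of Grin2a, Grin2b, Grin2c and Grin2d, 1 point per library, baicalin left of saline. The Grin2a to Grin2b ratio stays between 1.27 and 1.32, and the Grin1 ratio of baicalin library 1 (1.04) is above the other 5 libraries.

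Genes that act with the receptor were taken from 5 lists, which hold 86 tested genes between them. None passed the adjusted threshold in edgeR, 60 of 86 (69.8%) had a log2 difference below 0, and the median was -0.05, against 50.2% and -0.0006 over all genes tested. At an unadjusted p under 0.05 in edgeR, 2 of the 86 were higher and 8 lower with baicalin. Of all genes tested 6.34% were higher and 5.46% lower at that p. In the longest length group 13.2% were lower, and in the next longest 6.31%. The median exonic length of the scaffold, kinase and calcium effector lists was 6401 to 7870 bases, in the longer range of the length trend. With length offsets 50 of the 86 were below 0 and the median was -0.02.

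Among scaffold and trafficking genes, 19 of 25 were below 0 (median -0.04), with 0 higher and 1 lower at an unadjusted p under 0.05. With length offsets the median of this list was 0.008. The lower one was Dlg2, which encodes PSD-93, a postsynaptic scaffold that binds the GluN2 C-terminus. It was at 168.9, 193.9 and 163.3 CPM in baicalin libraries 1 to 3 and 364.9, 390.9 and 203.4 in saline libraries 1 to 3. Saline library 3 lay nearer to the baicalin libraries than to the other saline libraries. The log2 difference was -0.87 ± 0.24 (SE), with an adjusted p of 0.325 in edgeR. Without saline library 3 it was -1.11 with an adjusted p of 0.0307, in a fit that called 14 of all genes, against 6 with every library. With any other library left out it was -0.94 to -0.70, with adjusted p values of 0.355 to 0.644, none past the threshold. Dlg3, which encodes the related scaffold SAP102, was at -0.09 (adjusted p 0.453). Cask, a scaffolding kinase, was at 0.13 (adjusted p 0.443) and Actn2, an actin crosslinker that binds GluN1, at 0.25 (adjusted p 0.475). Of the genes listed beside the subunit genes, Grina was at 0.02 (adjusted p 0.874; -0.06 with TPM scaling) and Grid1, which encodes a delta glutamate receptor, at -0.10 (adjusted p 0.475).

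Among kinases and phosphatases that act on the receptor, 9 of 19 were below 0 (median 0.009), with 2 higher and 5 lower at an unadjusted p under 0.05. With TPM scaling the median was -0.07, close to the -0.08 of all genes, and it changed sign to -0.03 without baicalin library 1 or without saline library 2. Prkca and Prkcb encode conventional protein kinase C isoforms, which phosphorylate GluN1 and GluN2 subunits. Prkca was at 399.2, 361.6 and 359.9 CPM in baicalin libraries 1 to 3 and 431.2, 463.5 and 449.5 in saline libraries 1 to 3. Prkcb was at 267.7, 260.1 and 257.8 in baicalin libraries 1 to 3 and 307.9, 328.6 and 290.6 in saline libraries 1 to 3. Neither gene's groups overlapped. Of all genes tested 9.52% lay apart in the lower direction, and 19.7% of the longest length group, which holds both. The log2 difference was -0.26 ± 0.06 for Prkca and -0.24 ± 0.05 for Prkcb (SE), both with an adjusted p of 0.310 in edgeR. DESeq2, which called 0.661% of all genes lower, gave adjusted p values of 0.0161 for Prkca and 0.0314 for Prkcb. With length offsets in edgeR Prkca was at -0.21 (adjusted p 0.435) and Prkcb at -0.20 (adjusted p 0.455). Src and Ptpn5, named after their values were seen, were also among the lower ones, both at -0.15. The higher ones were Fyn, a kinase of GluN2 tyrosines, at 0.11 (adjusted p 0.417) and Dapk1, a death-associated kinase known to act on GluN2B, at 0.13 (adjusted p 0.404).

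Among genes that supply or clear glutamate, glycine and D-serine, 15 of 20 were below 0 (median -0.06), with 0 higher and 2 lower at an unadjusted p under 0.05. Slc17a7, which encodes the vesicular glutamate transporter VGLUT1, was one of these, at a log2 difference of -0.16 ± 0.06 (SE; adjusted p 0.395 in edgeR). Shmt1, a serine hydroxymethyltransferase, was at 0.16 (adjusted p 0.737) and Slc17a6, which encodes VGLUT2, at 0.37 (adjusted p 0.781; -0.09 without baicalin library 2). The lowest value of the list, named after it was seen, was that of the amino acid transporter gene Slc6a20a at -0.97 ± 0.61 (SE; adjusted p 0.559), where saline library 3 was at 6.36 FPKM and the other 5 libraries between 1.02 and 1.98 FPKM.

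Among calcium effectors, 16 of 20 were below 0 (median -0.09), with 0 past an unadjusted p of 0.05 in either direction. With length offsets 14 of 20 were below 0 and the median was -0.02, and without saline library 3 it was -0.05. Kalrn, a guanine nucleotide exchange factor of dendritic spines, was at -0.14 (adjusted p 0.437) and Rasgrf1, a calmodulin-dependent Ras exchange factor, at -0.09 (adjusted p 0.445). With length offsets these were at -0.01 and -0.02. The calmodulin genes Calm2 at 0.08 (adjusted p 0.565) and Calm3 at 0.07 (adjusted p 0.620) were on the other side of 0, though both were below 0 with TPM scaling, at -0.0031 and -0.0090, and Calm2 with length offsets, at -0.0059. Larger differences, named after they were seen, had wide errors: Creb1, which encodes a calcium-responsive transcription factor, was at -0.66 ± 0.92, Ppp3cb, a calcineurin catalytic subunit gene, at -0.40 ± 0.37 and Camkk1, a CaM kinase kinase gene, at 0.45 ± 0.46 (SE). All 3 had overlapping groups.

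**Figure D5:**
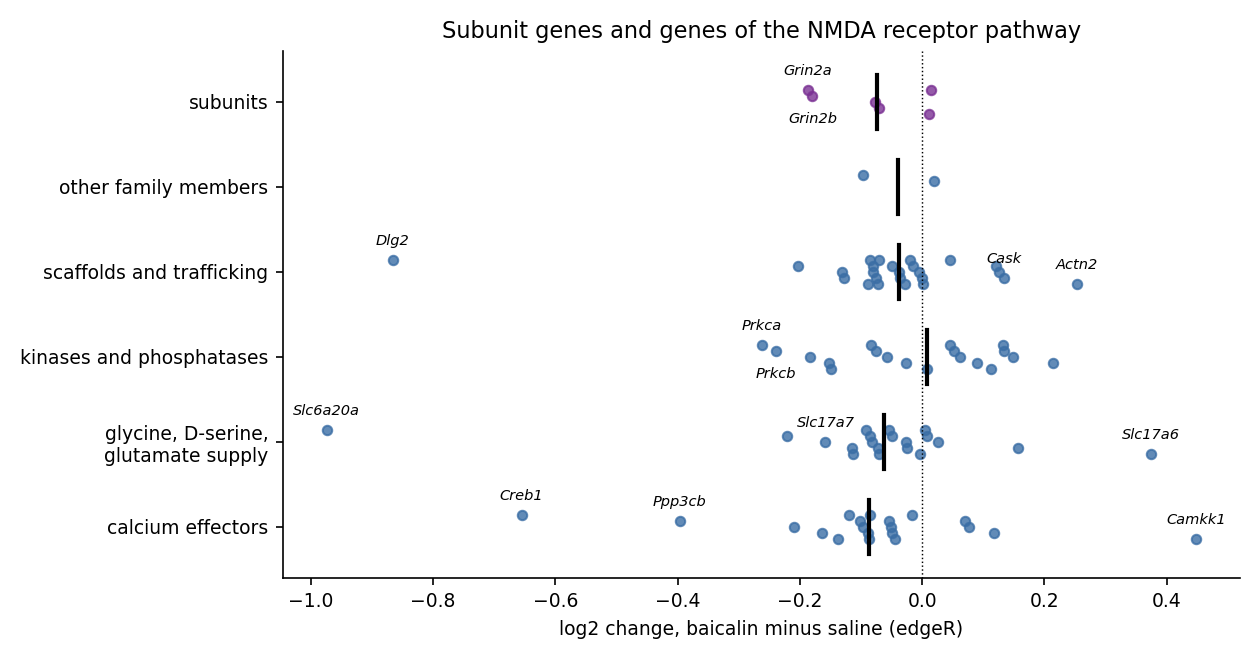
Log2 difference, baicalin minus saline, of each tested gene of the 5 lists and of the 6 subunit genes (1 point per gene, 1 line of points per list), with the median of each as a black bar. Dlg2 at -0.87 stands apart in its list, the farthest points of the lower lists belong to genes whose groups overlapped (Slc6a20a, Creb1, Ppp3cb and Camkk1), and no gene passed the adjusted threshold in edgeR.

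The genes whose levels ran most like each subunit gene over the 6 libraries were ranked among 11529 named genes by Pearson's r of log2 CPM. This is a description over 6 points, and all genes share the same 6 libraries. Rgs7bp, which encodes a binding protein of RGS7, ran closely with Grin2a (r = 0.994). Rgs7bp was at 26.01, 22.9 and 24.7 FPKM in baicalin libraries 1 to 3 and 26.7, 27.4 and 28.8 FPKM in saline libraries 1 to 3, so it shared the low baicalin library 2 and the high saline library 3 of Grin2a. Grin2b ran most like Zfp12 (r = 0.998) and Eng (r = 0.992), and Grin1 most like Chd1l (r = 0.996) and Parp6 (r = 0.993). Grin2c ran most like Patl1 (r = 0.988) and Prr12 (r = 0.986), Grin2d most like Adck1 (r = 0.990) and Hdac4 (r = 0.982), and Grin3a most like Nwd2 (r = 0.985) and Rab3gap2 (r = 0.984).

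Markers of CA1 pyramidal cells, which express Grin2a and Grin2b strongly, were lower on average with baicalin too. Of the 6 CA1 markers, 5 had a log2 difference below 0, with a median of -0.31, and none was at 0 in any library. They summed to 119.1, 94.5 and 109.4 FPKM in baicalin libraries 1 to 3 and to 127.4, 117.0 and 120.8 FPKM in saline libraries 1 to 3. The other neuron lists did not run this way. CA2 and CA3 markers summed to 212.8 to 230.6 FPKM with baicalin and 190.6 to 207.3 FPKM with saline. Pcp4 alone averaged 104.4 FPKM of that, from 79.6 to 129.0 FPKM over the 6 libraries. Of these 7 markers 4 were below 0, with a median log2 difference of -0.01. Of the 6 dentate markers 1 was below 0, with a median of 0.20. Their sums were 58.2 to 60.8 FPKM with baicalin and 57.6, 37.5 and 61.4 FPKM in saline libraries 1 to 3, with saline library 2 far below all the others. Markers of neighbouring cortex summed to 46.8 to 50.4 FPKM with baicalin and 43.4 to 44.6 FPKM with saline. Baicalin library 2 was lowest in the CA1 sum, as in Grin2a and Grin2b, and baicalin library 1 lay within the saline range. The part of any of these cell types in the values of Grin2a and Grin2b was not tested. Astrocyte markers summed to 197.5 to 200.7 FPKM with baicalin and 190.0 to 210.0 FPKM with saline.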

How the data were processed

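RNA from hippocampus was depleted of ribosomal RNA and fragmented to 100 to 300 bp, per the labels' protocols. The authors deposited, per the file headers, unnormalised read counts and FPKM values for each gene and library. FPKM scales fragments to the length assigned to the gene and to library size. Per the submitters' processing notes, bcl2fastq 2.0, HISAT2, StringTie, DESeq2 and limma were used with build mm10. Options and strand setting: not given in the sources used here. Another 12 columns of per-sample values fit no label and were left out.

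Counts were TMM-scaled and fitted with a treatment term in edgeR 4.0.16 (R 4.3.3) over 13153 genes averaging 1 FPKM or more, at a Benjamini-Hochberg adjusted threshold of 0.05. Differences on the log2 scale are baicalin minus saline. Intervals are 95% from the test's own degrees of freedom. CPM values use the same TMM factors. Ratios were tested by exact permutation over libraries. The procedure was run on simulated data with no length trend and with added differences larger than those of the subunit genes. That run does not show how it performs on differences as small as theirs. Alternatives used other filters, scalings, DESeq2 1.42.0, limma 3.58.1, length offsets (lowess span 0.3), the replicate block and each library left out. Coding sequences were aligned with MAFFT 7.526. Coordinates are those of the deposited table; 32185 of 32201 gene identifiers matched GENCODE mouse release 21.

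Genes named were the members, Grin3b, the 2 higher and 2 lower genes of smallest unadjusted p in each pathway list where there were as many, and the 2 genes most like each member. The members and lists were chosen with earlier results of these data known. Some genes and sequences that this rule covers are not reported here.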

Additional observations from a re-analysis of the deposited data

How the results depend on the processing

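No subunit gene passed the adjusted threshold under any of the 20 alternatives, of which 19 could be run for Grin2d and Grin3a, since both are below the 5 FPKM filter. The log2 difference of Grin2a stayed below 0 in all 20, from -0.27 to -0.08, with adjusted p values of 0.232 to 0.754, and that of Grin2b in all 20, from -0.26 to -0.05, with adjusted p values of 0.231 to 0.849. With 1 library left out, Grin2a ranged from -0.24 to -0.13 and Grin2b from -0.23 to -0.12. Scaling to TPM, which moved the median of all genes to -0.08, gave -0.077 for Grin1, -0.066 for Grin2d, -0.060 for Grina, -0.0031 for Calm2 and -0.0090 for Calm3. In limma Grin1 was at -0.0047 on log2(FPKM + 1) and -0.0052 on log2(FPKM + 0.1), and with voom Grin2d was at -0.0068. Length offsets gave 0.0034 for Grin3a, -0.032 for Grina and -0.0059 for Calm2. Grin2c was at -0.16 with TPM scaling (unadjusted p 0.0495 in limma). With 1 library left out, Grin2c ranged from -0.10 to -0.05, Shmt1 from 0.058 to 0.29, Actn2 from 0.14 to 0.31, Kalrn from -0.19 to -0.089, Calm2 from 0.051 to 0.12 and Calm3 from 0.032 to 0.094. Grin1 then ranged from -0.14 to 0.10, Grin2d from -0.058 to 0.13, Grin3a from -0.16 to 0.0090, Grina from -0.013 to 0.041 and Slc17a6 from -0.088 to 0.77. The log2 ratio of Grin2a to Grin2b then ranged from -0.022 to 0.0076, and that of Grin1 to the GluN2 sum from 0.051 to 0.26. Genes of the pathway lists past the threshold numbered 2 with DESeq2 and 0 to 1 with a library left out. All genes past it numbered 6, against 218 with DESeq2 and 2 to 39 with a library left out (39 when baicalin library 1 was out, 2 when it was baicalin library 3, 10 for saline library 2 and 14 for saline library 3). The causes were not tested.

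Libraries of the same replicate number deviated together with r of 0.12, 0.080 and 0.012, against -0.10 to 0.036 for libraries of different numbers. These values do not settle whether the numbers pair libraries. The labels do not say that they do, so the block is given only as an alternative. With the replicate number as a block, 0 genes passed in all, Grin2a was at -0.19 and Grin2b at -0.18 (adjusted p 0.580 each in edgeR). With the block and length offsets 0 genes passed, Grin3a was at 0.0026, Grina at -0.033 and Calm2 at -0.0069. Grin3b, at 0 to 10 counts per library, is too shallow to compare.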
